A study of Populus ussuriensis with 12 samples.

Results

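The enzymes PAL, C4H and 4CL carry phenylalanine into the phenylpropanoid pathway, and 9 genes that encode them were followed here in poplar roots. They are PAL1 to PAL5 (Potri.006G126800, Potri.008G038200, Potri.016G091100, Potri.010G224100 and Potri.010G224200), C4H1 and C4H2 (Potri.013G157900 and Potri.019G130700), and 4CL3 and 4CL5 (Potri.001G036900 and Potri.003G188500). The rule lists these IDs by enzyme family, with no threshold on measured values, though the families were picked with earlier results of these data known. All 9 were found among the 34699 IDs of the expression table. The table gives IDs alone, so the enzyme names are those of the Populus gene families.

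Phenylalanine ammonia-lyase (PAL) removes the amino group of phenylalanine as ammonium and leaves cinnamate. Cinnamate 4-hydroxylase (C4H), a cytochrome P450 enzyme of the endoplasmic reticulum, turns cinnamate into p-coumarate, and 4-coumarate:CoA ligase (4CL) activates p-coumarate to its CoA ester. That ester feeds the monolignols that build lignin in the walls of water-conducting cells, and also flavonoids, tannins and other phenolics. In Populus trichocarpa, PAL1 and PAL3 form a sequence group apart from PAL2, PAL4 and PAL5, and 4CL3 and 4CL5 are the forms tied to lignin in wood.

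The samples were roots of Populus ussuriensis plants propagated clonally in vitro on sucrose-containing woody plant medium. Wild-type (WT) plants and plants labelled PuHox52-OE, which overexpress PuHox52, were started from internodes on this medium for 6 days and then kept for 3 weeks with normal N or low N. Each of the 4 groups (WT or PuHox52-OE, normal N or low N) held 3 libraries, which the design text calls biological replicates. The sources used here do not state the promoter of the transgene, the number of independent transgenic lines, the N concentrations or whether plants were pooled for a library.

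Values are FPKM, fragments scaled to gene length and to all fragments mapped in that library, which allows levels of different genes to be set side by side. Relative depth, read from the steps of the lowest FPKM values, was 1 to 1.22 in the normal-N and 0.447 to 0.501 in the low-N libraries, and absolute depth is unknown. Replicates of a group correlated at 0.976 to 0.996 across genes (Pearson, log2 values; genes are not independent replicates). The lowest values were those of low-N PuHox52-OE, at 0.976 to 0.985, against 0.986 to 0.988 in low-N WT. Summed FPKM at low N was 667558 to 686005 in PuHox52-OE libraries and 628254 to 633875 in WT libraries. Potri.014G103000, an ID the table does not name, lay at 6.71 to 8.14 FPKM in WT and at 2251 to 2392 in PuHox52-OE at normal N, and at 28.2 to 55.4 and 1091 to 2310 FPKM under low N. It was picked for the largest rise in PuHox52-OE at normal N, so its separation there is not an independent check of the genotype labels. Markers that would check the root label were not analysed here. Depth differed by N supply, and the labels name 2 sequencing companies but not which libraries each made. Any comparison of low with normal N therefore cannot be told apart from a difference between library batches, while both genotypes at a given N supply had like depth.

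All 9 genes were expressed in every library. In WT roots at normal N the order ran from C4H1 at 369 ± 20.1 FPKM (mean ± SD, n = 3) through PAL1 at 220.3 ± 3.30, PAL3 at 204 ± 7.56, PAL2 at 142 ± 3.88 and C4H2 at 98.1 ± 3.87. Below these lay PAL4 at 55.4 ± 3.15, 4CL3 at 55.0 ± 1.46, 4CL5 at 32.1 ± 1.96 and PAL5 at 19.9 ± 1.09 FPKM. Neighbours in this order did not overlap between libraries, except PAL4 and 4CL3. The median tested gene lay at 8.45 FPKM in this group, and C4H1 stood above 99.5% and PAL5 above 74.4% of tested genes.

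The order shifted with the condition. At low N, PAL3 was second to C4H1 in WT, and in PuHox52-OE roots it had the highest mean of the 9, with libraries that overlapped those of C4H1. PAL5 was the lowest of the 9 in all 4 groups. In PuHox52-OE at low N it reached 4.87 ± 0.425 FPKM, which was above 31.1% of tested genes. Low-N WT roots had the highest group mean for 5 genes (PAL3, C4H1, C4H2, 4CL3 and 4CL5), and normal-N PuHox52-OE roots for the other 4. Low-N PuHox52-OE roots had the lowest mean for 6 of the 9.

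**Figure D1:**
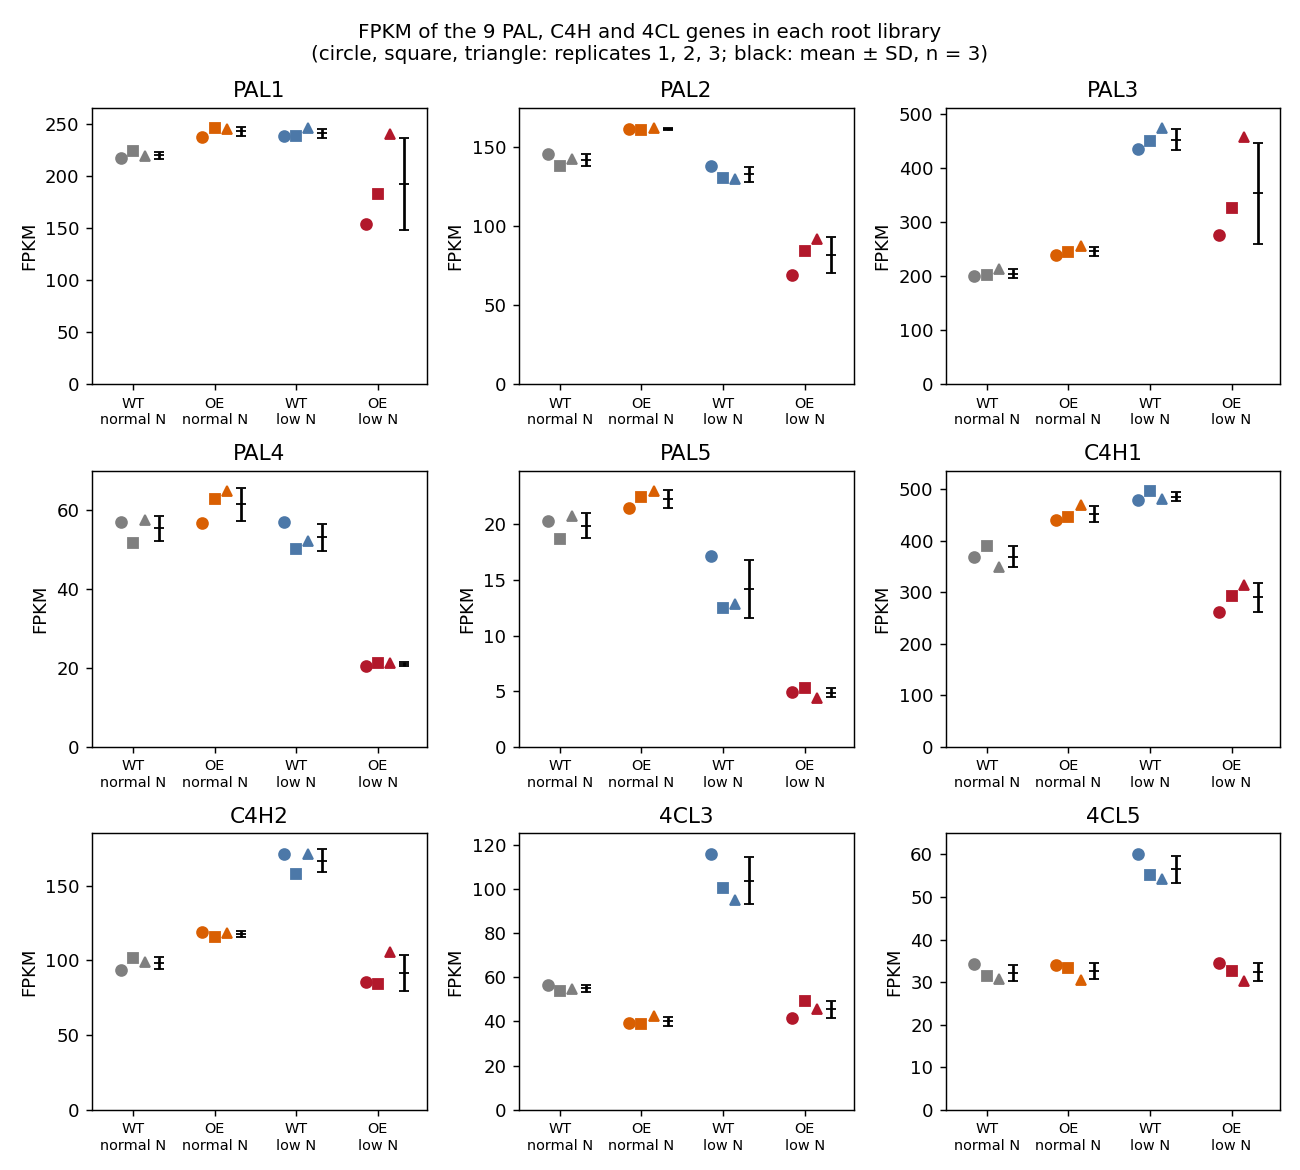
FPKM of each gene (vertical axes, each starting at 0) in the 12 root libraries, grouped by genotype and N supply, with symbols for replicates and black marks for mean ± SD (n = 3). PAL4, PAL5, C4H1 and PAL2 show low-N PuHox52-OE libraries below all others, while PAL1 and PAL3 have a wide spread in that group.

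The question of the genotype comparison at normal N was whether PuHox52-OE roots held other levels of these transcripts than WT roots. They held more C4H and less 4CL3, by small amounts, and PAL showed no change that passed the test. Of the 9 genes, 3 were called by limma at an adjusted p under 0.05 (Benjamini-Hochberg over 24570 genes), against 23.8% of all tested genes. The 2 higher genes compare with 6.54% of tested genes called higher, and the 1 lower gene with 17.3% called lower. Median-of-ratios scaling turned that balance, to 14.7% higher and 10.5% lower over all tested genes, with 4 of the 9 higher and 1 lower. In bulk roots, fewer cells of a type and less RNA per cell cannot be told apart, here and in all comparisons that follow.

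C4H1 stood at 369, 389.7 and 349.6 FPKM in the WT libraries and at 440.3, 446 and 469.7 in PuHox52-OE. All PuHox52-OE libraries were above all WT libraries, with a log2 fold change of 0.29 ± 0.0698 (SE; limma adjusted p = 0.00942). C4H2, the less abundant of the pair, was at 93.8, 101 and 99.2 FPKM in WT and at 119, 116 and 118 in PuHox52-OE, a log2 fold change of 0.26 ± 0.0785 (SE; limma adjusted p = 0.0295). The C4H2 call was lost in 5 of the 12 fits that left out 1 library, with limma adjusted p from 0.0643 to 0.107. All 5 left out a normal-N library. Of such fits, only that without WT replicate 2 kept the call (limma adjusted p = 0.0427). Leaving out a low-N library cannot move this fold change. Median-of-ratios scaling raised the C4H2 value to 0.39.

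4CL3 went the other way. It measured 56.5, 53.6 and 54.8 FPKM in WT and 39.1, 38.7 and 42.2 in PuHox52-OE at normal N, so that every PuHox52-OE library was lower. Its log2 fold change was -0.45 ± 0.0787 (SE; limma adjusted p = 0.00147), a 1.37-fold lower mean. Its paralog 4CL5 had 32.1 ± 1.96 and 32.6 ± 1.88 FPKM (SD, n = 3), with overlapping libraries and an interval of the log2 difference from -0.13 to 0.17 (95%).

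The 5 PAL genes had fitted values above WT, with log2 fold changes from 0.14 (PAL1) to 0.27 (PAL3) and limma adjusted p from 0.122 to 0.406. PAL1, PAL2, PAL3 and PAL5 did not overlap between the genotypes. PAL2 lay at 138 to 145 FPKM in WT and at 161 to 162 in PuHox52-OE. Counting all 9 genes, 6 lay wholly above WT, against 14.6% of all tested genes, and 1 wholly below, against 33.3%. The spread in the test comes from 12 libraries, among them the scattered low-N PuHox52-OE values of PAL1 and PAL3. A fit on the 2 normal-N groups alone called 6 of the 9, with PAL1, PAL2 and PAL3 added. Over all tested genes that fit also called more than the 5851 of the fit on 12 libraries, most of them lower. The added calls therefore need not be particular to PAL. After median-of-ratios scaling PAL2 and PAL4 were called higher, with log2 fold changes of 0.32 and 0.28 (limma adjusted p = 0.025 and 0.0131).

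At low N the genotypes parted strongly: all 9 genes fell below WT in PuHox52-OE roots, each with a limma adjusted p under 0.05. Of all tested genes, 47.9% were called in this comparison and 30.3% were called lower, or 21.2% after median-of-ratios scaling, which called 7 of the 9 lower. The median log2 fold change of the 9 was -0.78, against -0.098 over all tested genes. In 7 of the 9 every PuHox52-OE library lay below every WT library, as in 33.7% of tested genes, and PAL1 and PAL3 overlapped.

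**Figure D2:**
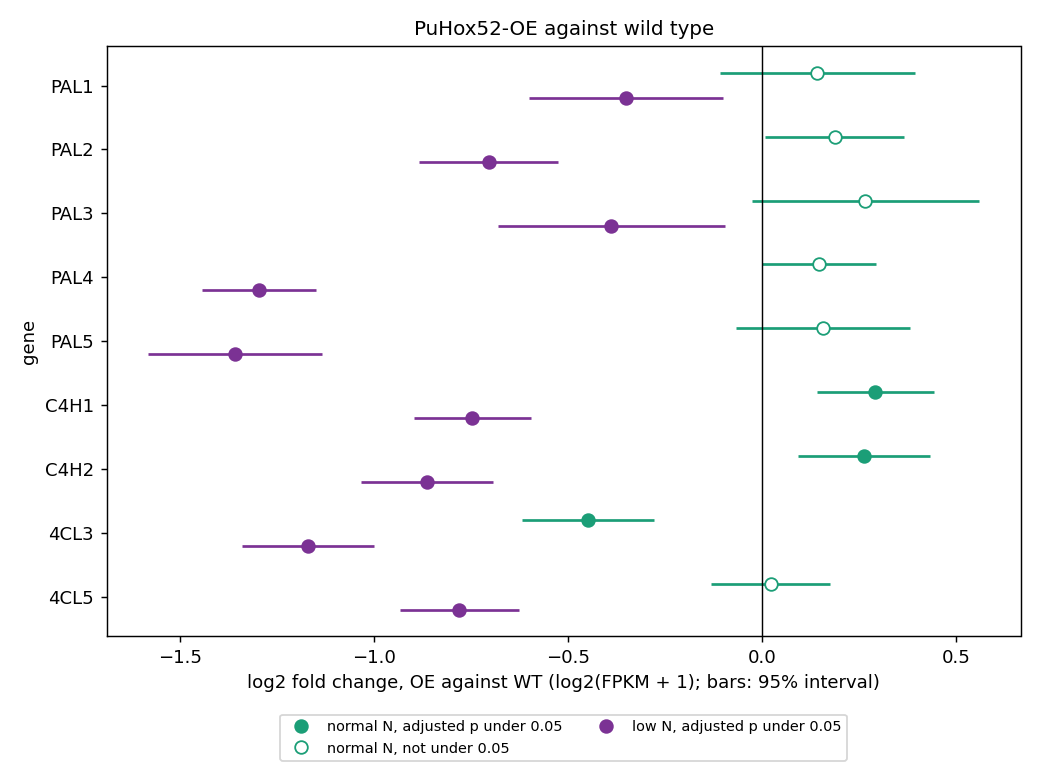
Log2 fold change of PuHox52-OE against WT on the log2(FPKM + 1) scale (horizontal axis) for each gene, at normal N and low N, with 95% intervals as bars and filled points for an adjusted p under 0.05. The low-N values run from -1.36 for PAL5 to -0.35 for PAL1, and the normal-N values from -0.45 for 4CL3 to 0.29 for C4H1.

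Among the lyases, PAL4 and PAL5 moved most. PAL4 measured 56.9, 50.1 and 52.2 FPKM in low-N WT libraries and 20.4, 21.3 and 21.2 in low-N PuHox52-OE libraries, a 2.53-fold lower mean (log2 fold change -1.30 ± 0.068 SE, limma adjusted p = 9.84e-09). PAL5 measured 17.2, 12.5 and 12.9 FPKM in WT and 4.94, 5.26 and 4.42 in PuHox52-OE, a 2.91-fold lower mean (-1.36 ± 0.104 SE, limma adjusted p = 2.93e-07). Both genes held a narrow band in PuHox52-OE, well under the lowest WT library. PAL4 and PAL5 carry consecutive IDs and belong to a family of similar copies. How fragments that align to more than 1 copy were counted is not given in the sources used here, so the split between close paralogs is uncertain.

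PAL2, of the same sequence group, was at 138, 130.1 and 129.6 FPKM in low-N WT and at 68.9, 84.0 and 91.6 in low-N PuHox52-OE. The groups stood apart, and the mean was 1.63-fold lower (log2 fold change -0.71 ± 0.0826 SE, limma adjusted p = 1.48e-05). PAL1 and PAL3 changed less and with more scatter. PAL1 was at 239, 239 and 246 FPKM in WT and at 154, 183 and 240.4 in PuHox52-OE, with a log2 fold change of -0.35 ± 0.115 (SE; limma adjusted p = 0.0238). PAL3 was at 434, 449 and 474 FPKM in WT and at 276, 325 and 456 in PuHox52-OE, with a log2 fold change of -0.39 ± 0.134 (SE; limma adjusted p = 0.0306). For both genes PuHox52-OE replicate 3 reached the WT range and the other 2 replicates lay below it.

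The calls of PAL1 and PAL3 were not firm. After median-of-ratios scaling they had limma adjusted p = 0.143 and 0.139, and in a fit on the 2 low-N groups 0.104 and 0.115. Leaving out 1 library ended the PAL1 call in 4 of 12 fits and the PAL3 call in 5. All of these fits left out a low-N library. Omission of a normal-N library cannot move these fold changes. Without PuHox52-OE low-N replicate 1, the log2 fold changes were -0.20 for PAL1 and -0.23 for PAL3, with limma adjusted p = 0.0799 and 0.102. Without replicate 3 of that group they were -0.52 and -0.59 (limma adjusted p = 5.04e-05 and 3.44e-05), and after quantile normalization -0.55 and -0.52 (limma adjusted p = 0.00143 and 0.0147).

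C4H1, the most abundant of the 9 in WT, was at 479, 497 and 482 FPKM in low-N WT and at 261, 294 and 315 in low-N PuHox52-OE. Its mean was 1.68-fold lower (log2 fold change -0.75 ± 0.0698 SE, limma adjusted p = 1.9e-06). C4H2 went from 171, 158 and 171 FPKM in WT to 85.2, 83.9 and 105 in PuHox52-OE, a 1.82-fold lower mean (-0.87 ± 0.0785 SE, limma adjusted p = 1.45e-06). Both hydroxylase genes therefore stood above WT at normal N and below WT at low N.

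Both ligase genes fell too. 4CL3 was at 116, 100.3 and 95.1 FPKM in low-N WT and at 41.7, 49.2 and 45.6 in low-N PuHox52-OE, a 2.28-fold lower mean (log2 fold change -1.17 ± 0.0787 SE, limma adjusted p = 9.29e-08). 4CL5 was at 60.1, 55.2 and 54.1 FPKM in WT and at 34.5, 32.6 and 30.2 in PuHox52-OE, a 1.74-fold lower mean (-0.78 ± 0.0708 SE, limma adjusted p = 1.41e-06). No library of either gene crossed between the genotypes.

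The interaction tests whether the genotype effect at low N differs from that at normal N. It was called for all 9 genes, each with a more negative effect at low N, while 35.9% of tested genes had a called interaction and 17.2% a negative one. It ran from -0.49 ± 0.163 (SE; limma adjusted p = 0.032) for PAL1 to -1.52 ± 0.146 (SE; limma adjusted p = 5.18e-06) for PAL5, with a median of -0.89 against 0.014 over all tested genes. PAL4 had -1.44, C4H2 -1.13, C4H1 -1.04, PAL2 -0.89, 4CL5 -0.80, 4CL3 -0.72 and PAL3 -0.66 on the log2 scale. All 9 kept a negative sign and an adjusted p under 0.05 under both other scalings (median-of-ratios and quantile). PAL1 missed the threshold in 10 of the 12 fits that left out 1 library, at limma adjusted p from 0.0514 to 0.0651.

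Low N was next set against normal N within each genotype. The WT response and the low-N genotype comparison share the 3 low-N WT libraries, and their values are given side by side without a test of likeness. Median-of-ratios scaling moved the median of all tested genes from 0.19 to 0.0021 in WT and from 0.22 to 0.0065 in PuHox52-OE, and changes below are to be read against that shift.

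In WT roots at low N, the hydroxylases, the ligases and PAL3 rose, PAL5 fell, and PAL1, PAL2 and PAL4 did not pass the test. Of the 9 genes 6 were called, against 68.8% of all tested genes, so the count is near the background. The 5 rises compare with 45.6% of tested genes called higher, and the 1 fall with 23.2% called lower. Median-of-ratios scaling made the all-gene shares 32.8% higher and 33.4% lower, with 4 of the 9 higher and 3 lower. The median of the 9 was 0.40, against 0.19 over all tested genes.

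PAL3 climbed from 199, 201 and 213 FPKM to 434, 449 and 474 in WT, a 2.21-fold higher mean (log2 fold change 1.14 ± 0.134 SE, limma adjusted p = 1.03e-05). 4CL3 rose 1.89-fold (0.90 ± 0.0787 SE, limma adjusted p = 4.42e-07), and its lowest low-N library, at 95.1 FPKM, was far above its highest normal-N library, at 56.5. 4CL5 rose 1.76-fold (0.80 ± 0.0708 SE, limma adjusted p = 5.25e-07) and C4H2 1.70-fold (0.76 ± 0.0785 SE, limma adjusted p = 2.14e-06). C4H1 rose by 0.40 ± 0.0698 on the log2 scale (SE; limma adjusted p = 0.000228), a call that median-of-ratios scaling ended, with 0.17 (limma adjusted p = 0.0871).

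None of the remaining lyase genes was called higher in WT. PAL5 fell by 0.47 on the log2 scale, from 18.7 to 20.7 FPKM at normal N to 12.5 to 17.2 at low N (SE 0.104, limma adjusted p = 0.00122). PAL2 had -0.097 and PAL4 -0.061, which became calls of -0.32 and -0.28 after median-of-ratios scaling (limma adjusted p = 0.00844 and 0.00354). PAL1 had 0.13 with the deposited scaling and -0.093 after median-of-ratios scaling, neither past the threshold.

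In PuHox52-OE roots the same change of N supply went with lower levels of most of these genes. Of the 9, 6 fell and 1 rose, and the ligases did not pass the test. In this comparison 69.7% of tested genes were called, 22.8% lower and 46.9% higher, or 34.0% lower and 33.9% higher after median-of-ratios scaling. That scaling called 7 of the 9 lower and 0 higher. With the deposited scaling the median of the 9 was -0.37, against 0.22 over all tested genes. By library, 5 of the 9 lay wholly below their normal-N values, as did 24.4% of tested genes.

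PAL5 went from 21.4, 22.4 and 23.0 FPKM to 4.94, 5.26 and 4.42, a 4.57-fold lower mean (log2 fold change -1.99 ± 0.104 SE, limma adjusted p = 4.46e-09). PAL4 went from 56.8, 62.7 and 64.8 FPKM to 20.4, 21.3 and 21.2, a 2.93-fold lower mean (-1.51 ± 0.068 SE, limma adjusted p = 1.26e-09). PAL2 had a 1.98-fold lower mean (-0.99 ± 0.0826 SE, limma adjusted p = 3.1e-07). These 3 genes of 1 sequence group thus showed the 3 largest falls of the 9.

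C4H1 fell by 0.64 ± 0.0698 (SE; limma adjusted p = 3.28e-06) and C4H2 by 0.37 ± 0.0785 (SE; limma adjusted p = 0.001) on the log2 scale, both of which had risen in WT. PAL1 fell by 0.36 ± 0.115 (SE; limma adjusted p = 0.0136), with overlapping libraries, and it missed the threshold in a fit on the 2 groups alone (limma adjusted p = 0.0628). Its value was -0.21 without PuHox52-OE low-N replicate 1 (limma adjusted p = 0.0494). Median-of-ratios scaling gave -0.61 for PAL1 and -0.62 for C4H2. PAL3 was the member that rose, from 238, 244 and 255 FPKM to 276, 325 and 456 (log2 fold change 0.49 ± 0.134 SE, limma adjusted p = 0.00623). Median-of-ratios scaling ended that call, with 0.24 (limma adjusted p = 0.171), and without PuHox52-OE low-N replicate 3 the value was 0.28 (limma adjusted p = 0.00432).

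Neither ligase gene passed the test in PuHox52-OE. 4CL5 had 34.0, 33.4 and 30.5 FPKM under normal N against 34.5, 32.6 and 30.2 under low N, with an interval of the log2 difference from -0.16 to 0.15 (95%). After median-of-ratios scaling 4CL5 was called lower, with -0.25 (limma adjusted p = 0.00414). 4CL3 had a log2 fold change of 0.18 ± 0.0787 (SE; limma adjusted p = 0.0581), which became -0.067 after median-of-ratios scaling. It was called higher with library weights (0.22, limma adjusted p = 0.0201) and in 3 of the 12 fits that left out 1 library, at 0.18 to 0.24 (limma adjusted p from 0.0197 to 0.0485).

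**Figure D3:**
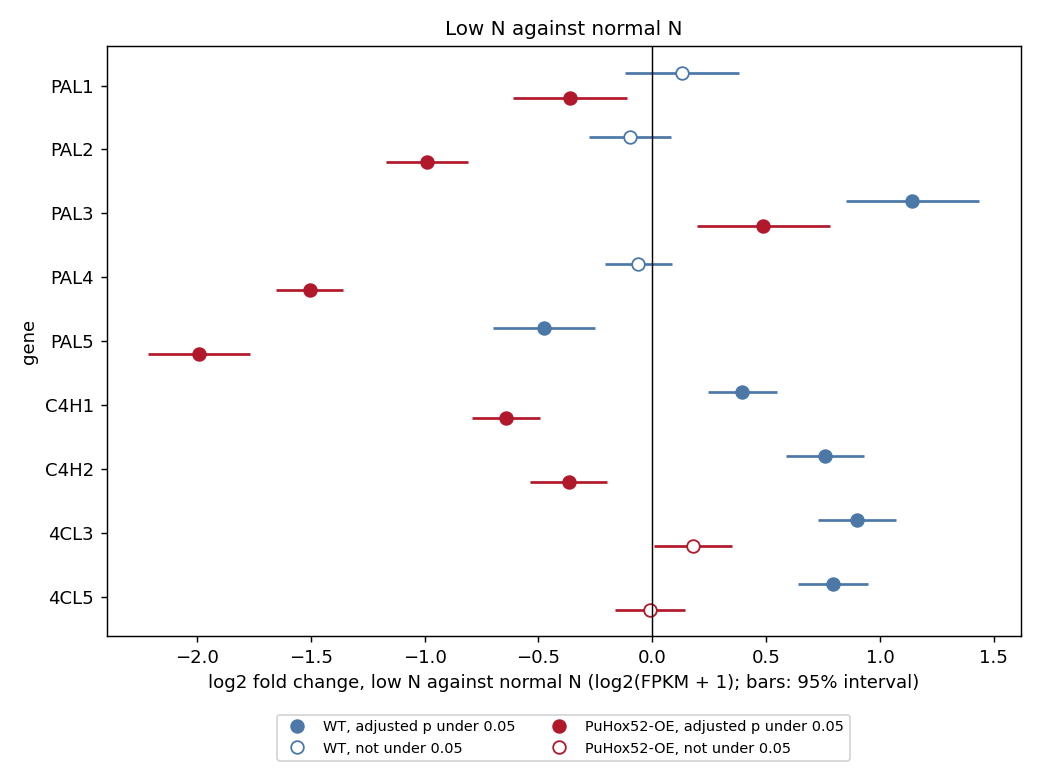
Log2 fold change of low N against normal N on the log2(FPKM + 1) scale (horizontal axis) for each gene in WT and in PuHox52-OE, with 95% intervals as bars and filled points for an adjusted p under 0.05. C4H1 has 0.40 in WT and -0.64 in PuHox52-OE, and PAL5 has -0.47 and -1.99.

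Summed over a family, the levels give a compact view, for which no test was made. The 5 PAL genes together held 642 ± 10.3 FPKM in WT and 734 ± 16.9 in PuHox52-OE at normal N (SD, n = 3), and in low-N roots 894 ± 18.5 and 652 ± 148. The 3 low-N PuHox52-OE sums were 524, 618 and 814 FPKM, all below the lowest low-N WT sum of 880.4. The C4H pair held 467 ± 21.5 and 569.7 ± 16.0 FPKM at normal N, against 653 ± 2.42 and 381 ± 37.3 in low-N roots. The 4CL pair held 87.1 ± 3.25 and 72.7 ± 0.526 FPKM at normal N, against 160.2 ± 13.95 and 77.9 ± 3.40 in low-N roots. Thus the summed ligase level of low-N PuHox52-OE roots was close to that of normal-N PuHox52-OE roots, whereas that of low-N WT roots was 1.84-fold above normal-N WT.

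The make-up of the families changed too. PAL3 made up 31.1% to 34.0% of PAL FPKM in the 6 normal-N libraries and 49.0% to 56.1% in the 6 low-N libraries. The mean share of each of the other 4 PAL genes was lower at low N in both genotypes. PAL5 went from 2.95% to 3.18% at normal N to 1.41% to 1.94% in low-N WT and 0.543% to 0.943% in low-N PuHox52-OE. C4H1 held 73.7% to 79.9% of C4H FPKM in all 12 libraries.

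Within the ligases, 4CL3 made up less of the sum in PuHox52-OE than in WT at both N supplies. The ratio of 4CL3 to 4CL5 FPKM was 1.65 to 1.79 in WT and 1.15 to 1.39 in PuHox52-OE at normal N. At low N it was 1.76 to 1.93 in WT and 1.21 to 1.51 in PuHox52-OE. No PuHox52-OE library reached the lowest WT ratio at either N supply. This ratio was singled out after its values were seen and was not tested.

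**Figure D4:**
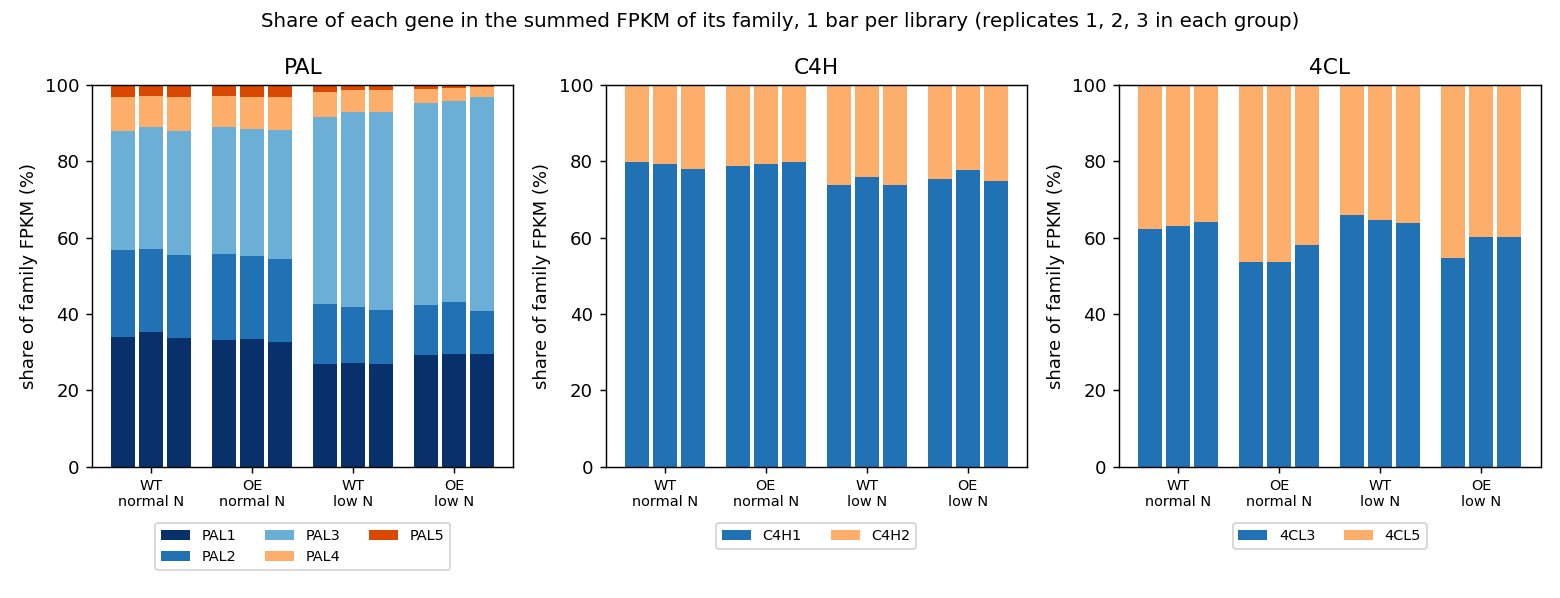
Share of each gene in the summed FPKM of its family (vertical axes, percent), 1 bar for each of the 12 libraries in 4 groups. PAL3 takes 31.1% to 34.0% of PAL at normal N and 49.0% to 56.1% at low N, and 4CL3 takes a smaller part of 4CL in PuHox52-OE than in WT.

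The later steps toward monolignols were followed with a list of 13 IDs, set from general knowledge of Populus trichocarpa lignin genes. The table does not annotate these IDs, so they are given by ID and as a group. After median-of-ratios scaling, 6 of the 13 were called higher and 1 lower in PuHox52-OE at normal N, against 14.7% and 10.5% of all tested genes. With the deposited scaling 4 were called higher and 1 lower, against 6.54% and 17.3%. The largest were Potri.007G016400, from 161 ± 3.85 to 247 ± 12.5 FPKM (SD, n = 3) with a log2 fold change of 0.62 (SE 0.0638, limma adjusted p = 3.83e-05), and Potri.005G117500, from 448 ± 14.03 to 599 ± 15.7 FPKM (0.42 ± 0.0583 SE, limma adjusted p = 0.000322).

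At low N, 11 of the 13 fell below WT in PuHox52-OE, against 30.3% of all tested genes. The median log2 fold change of the list was -0.70, against -0.098 over all tested genes. After median-of-ratios scaling, 9 of the 13 were called lower, against 21.2% of all tested genes. Potri.008G136600 went from 10.9 ± 1.51 to 4.09 ± 1.37 FPKM (SD, n = 3), and its log2 fold change was -1.25 (SE 0.152, limma adjusted p = 2.29e-05). Potri.003G181400 went from 236 ± 14.1 to 108 ± 2.86 FPKM (-1.12 ± 0.0542 SE, limma adjusted p = 4.73e-09). The interaction was called with a negative sign for 10 of the 13, against 17.2% of all tested genes, and the same 2 IDs had the largest values, -1.35 and -1.11.

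In WT at low N, 10 of the 13 rose and 2 fell, against 45.6% and 23.2% of all tested genes. Median-of-ratios scaling gave 9 rises and 3 falls, against 32.8% and 33.4%. Potri.009G099800 rose from 91.1 ± 7.08 to 212 ± 11.9 FPKM (SD, n = 3), with a log2 fold change of 1.21 (limma adjusted p = 5.21e-09). Potri.005G117500 fell to 197 ± 12.7 FPKM (log2 fold change -1.18, limma adjusted p = 2.07e-09), and in PuHox52-OE to 136 ± 4.22 (-2.13, limma adjusted p = 1.13e-11). In PuHox52-OE, 3 of the 13 rose and 6 fell, against 46.9% and 22.8% of all tested genes. The count of calls in either direction is thus near the background of 69.7%. After median-of-ratios scaling 2 rose and 9 fell, against 33.9% and 34.0%. With the deposited scaling, Potri.003G181400 had a log2 fold change of -1.14 in PuHox52-OE (limma adjusted p = 1.96e-09). The medians of the list were 0.68 in WT and -0.12 in PuHox52-OE, against 0.19 and 0.22 over all tested genes.

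As a marker of lignifying cells, 5 IDs of secondary wall cellulose synthases, from the same kind of knowledge, were summed. Their sum was 41.9 to 50.2 FPKM in WT and 21.7 to 27.1 in PuHox52-OE at normal N. In low-N roots it was 57.0 to 76.9 and 34.9 to 54.1. No ID of this list was at 0 in any library. All 5 fell below WT in PuHox52-OE at both N supplies, with a median log2 fold change of -0.85 under normal N and -0.54 under low N. Of all tested genes, 17.3% and 30.3% were called lower. In both genotypes 4 of the 5 rose at low N, where 45.6% of tested genes rose in WT and 46.9% in PuHox52-OE. The interaction had 0 calls among the 5 in limma, with 0 at an unadjusted p under 0.05. Of all tested genes, 35.9% had a called interaction and 18.8% a positive one. Fitted values were 0.18 to 0.37 for the 5, where the 9 entry genes had -1.52 to -0.49. Standard errors were 0.17 to 0.24 for the 5 and 0.096 to 0.19 for the 9. With errors of that size, 0 calls do not show that the 5 lack an interaction. The part of these 5 IDs in the differences of PAL, C4H and 4CL was not tested.

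**Figure D5:**
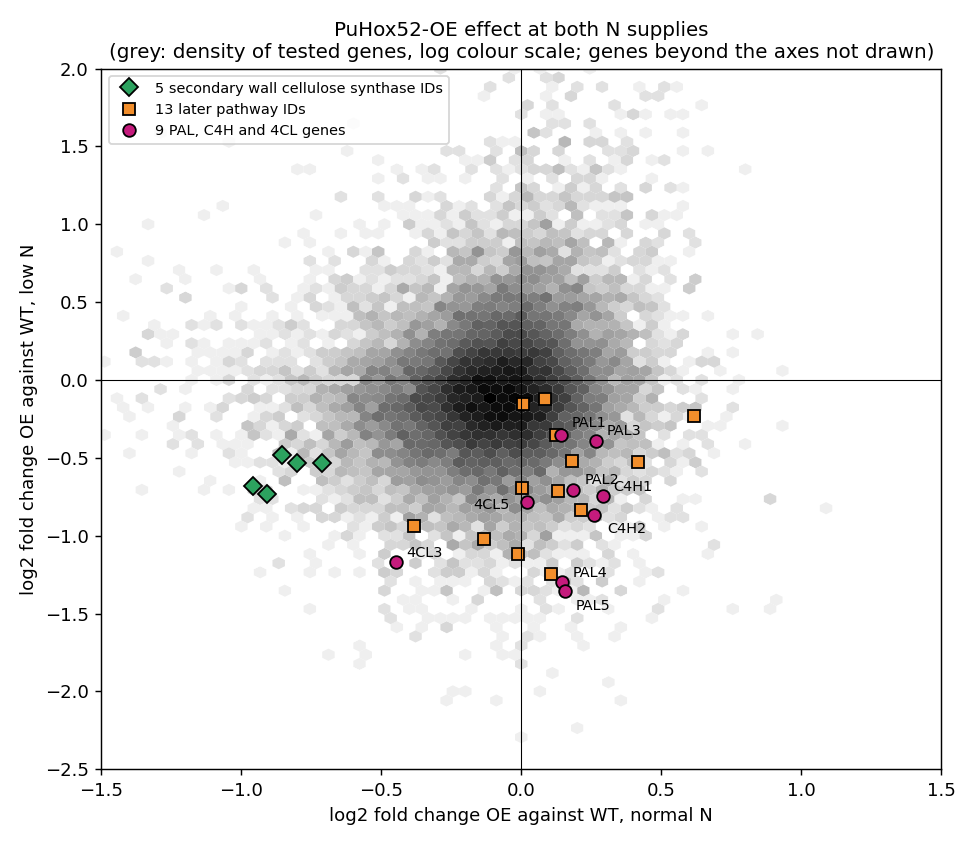
Log2 fold change of PuHox52-OE against WT at normal N (horizontal axis) and at low N (vertical axis) for the 9 genes, the 13 later pathway IDs and the 5 cellulose synthase IDs, over a grey density of tested genes. The 9 genes lie below 0 on the vertical axis at -1.36 to -0.35, and all but 4CL3 lie above 0 on the horizontal axis, where the cellulose synthase IDs lie at -0.96 to -0.71.

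For each gene, the ID with the most similar pattern over the 12 libraries was picked among 16691 IDs with a mean of at least 5 FPKM. Likeness is Pearson's r of log2(FPKM + 1), and since the libraries fall into 4 groups, it reflects mainly 4 group means. PAL5 was closest to Potri.016G124700 (r = 0.995), which had means of 64.5 FPKM in WT and 73.5 in PuHox52-OE under normal N, against 25.3 and 0.914 under low N. PAL4 was closest to Potri.011G103700 (r = 0.993), 4CL3 to Potri.007G147100 (r = 0.988) and PAL2 to Potri.011G169200 (r = 0.987). C4H2 was closest to Potri.014G033600 and PAL3 to Potri.006G152200 (both r = 0.984), and 4CL5 to Potri.008G136200 (r = 0.983). C4H1 paired with Potri.019G039700 (r = 0.973), and the lowest likeness was that of PAL1 with Potri.009G075300 (r = 0.935). None of these IDs was on the list of 13.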

How the data were processed

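FPKM values of 34699 IDs in 12 root libraries were deposited by the authors, with 1 column per library, per the file headers. TopHat and DESeq2 are named in the submitters' processing notes, with neither role nor version. Build, annotation and FPKM program: not given in the sources used here. Columns were matched to samples by GEO's description field, with 0 other columns of values. IDs with at least 1 FPKM in at least 3 libraries (24570, all 9 members included) were taken to log2(FPKM + 1) and fitted with limma 3.58.1 in R 4.3.3 (trend and robust estimation, 1 mean per group, 8 residual degrees of freedom). Fold changes on this scale understate changes of low genes. Adjusted p-values are Benjamini-Hochberg over all tested IDs. A count model was not used, since FPKM are not counts.

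Relative depth was read from low FPKM values: with 976 IDs under 0.15 FPKM, 100% of values were whole fragment numbers to within 0.1. The depths came from the low IDs themselves, so this share is not an independent check. With equal depths assumed it was 48.4%. In simulated data of 24570 IDs for PuHox52-OE against WT at normal N, 51 of 100 IDs changed by 0.5 and 87 of 100 changed by 1 on the log2 scale were called, with 3 false calls and 0 sign errors. All other IDs were left unchanged between these 2 groups, with normal noise drawn independently for each ID. The real comparison called 5851 IDs, so these rates need not hold for it.

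The members, the lists of 13 and 5 IDs and the tests were chosen with earlier results of these data known. All 9 members were named in every comparison, and of the 13 the 2 called IDs with the largest change. The most similar ID was 1 per member. Alternatives were other pseudocounts (0.1 and 5), filters (none and 5 FPKM), scalings, eBayes options, library weights, the 2 groups alone, a replicate block and omission of each library in turn. No sequence is shown, since no sequence source was used here.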

Additional observations from a re-analysis of the deposited data

Results flagged for a closer look

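The effect of PuHox52-OE differed between low N and normal N for each of the 9 genes by the interaction term in limma (adjusted p under 0.05). On the log2 scale the low-N effect minus the normal-N effect was -0.49 for PAL1, -0.89 for PAL2, -0.66 for PAL3, -1.44 for PAL4 and -1.52 for PAL5. It was -1.04 for C4H1, -1.13 for C4H2, -0.72 for 4CL3 and -0.80 for 4CL5. For PAL1 the call was lost in 10 of 12 fits that left out 1 library. The low-N libraries had lower depth, with no such difference between the genotypes, and its part in the interaction was not tested.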

How the results depend on the processing

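Of 981 values of members under other settings, 925 kept their direction and side of the threshold, 31 lost the call, 17 gained it and 8 changed sign. In a comparison of 2 groups, leaving out a library of another group cannot move the fold change, only its error. Those values kept their sign by design. At normal N, 3 of the 9 genes were called as reported, 5 after median-of-ratios scaling, 6 with library weights and 6 in the fit on the 2 groups alone. Over all tested genes 5851 were called there, 11246 with library weights and 3699 to 6553 when 1 library was left out. The fit on the 2 groups alone called more of all tested genes than the 5851 as reported, and fewer than with library weights. The low end came without PuHox52-OE normal-N replicate 3, and WT normal-N replicate 1 left out gave 3899. Leaving out 1 library gave 2 to 4 called members and 3 to 5 called IDs of the 13 at normal N (5 as reported, 3 without PuHox52-OE normal-N replicate 3). It gave 7 to 9 members for the genotype effect at low N, 8 to 9 for the interaction, 6 in every case for WT and 7 to 8 for PuHox52-OE at low N against normal N. Over all tested genes these fits called, in the same order, 10137 to 11964, 7531 to 8965, 15606 to 17263 and 15727 to 17140.

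Sign changes were found for 3 genes, none of them called as reported. The 4CL5 genotype effect at normal N (0.022) was -0.015 with library weights, -0.011 without WT normal-N replicate 3 and -0.0079 without PuHox52-OE normal-N replicate 1, with a range of -0.011 to 0.069 when 1 library was left out. The 4CL5 response in PuHox52-OE (-0.0082) was 0.021 and 0.0091 without PuHox52-OE normal-N replicates 1 and 2 and 0.040 without low-N replicate 3, with a range of -0.055 to 0.040. After median-of-ratios scaling PAL1 in WT was -0.093 and 4CL3 in PuHox52-OE -0.067.

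The share of higher calls over all genes moved with scaling, from 27.5% to 58.4% (median-of-ratios) at normal N and from 36.8% to 51.6% at low N between genotypes, and from 66.3% to 49.6% in WT and 67.2% to 49.9% in PuHox52-OE between N supplies. The values showed no sign of pairing by replicate number, which does not settle whether libraries were paired. Deviations from group means correlated at -0.127 to 0.0942 over 18 pairs of same-numbered libraries. Over 36 pairs with other numbers the range was -0.163 to 0.213. A replicate block gave 3, 9, 6, 7 and 9 called members for the genotype effect at normal N and low N, the response in WT and PuHox52-OE, and the interaction, as without it, and 5424, 11541, 16758, 16957 and 8453 calls over all genes. Depth limits the precision of low values more at low N.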
